A study of Saccharomyces cerevisiae with 6 samples.

Results

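The iron uptake regulon was followed through 10 genes of *Saccharomyces cerevisiae*, chosen by name and systematic identifier from the 5913 genes of the deposited table. They are *FET3* (YMR058W), *FTR1* (YER145C), *FRE1* (YLR214W), *SIT1* (YEL065W), *ENB1* (YOL158C), *FIT1* (YDR534C), *FIT2* (YOR382W), *FIT3* (YOR383C), *AFT1* (YGL071W) and *TIS11* (YLR136C, also called *CTH2*). RNA-seq was made on 3 cultures expressing Not4RRM and 3 expressing Not4WT, and the question addressed is how transcript levels differ when the RRM and C3H1 domains of the Not4 ubiquitin ligase are mutated. Every culture was a *not4Δ* derivative of BY4741, a haploid MATa laboratory strain with his3Δ1, leu2Δ0, met15Δ0 and ura3Δ0 alleles. Each carried a centromeric *URA3* plasmid with FLAG-tagged *NOT4* under the *ADH1* promoter, either with the G167A, F202A and C244A substitutions (Not4RRM) or without them (Not4WT). The gene therefore came from a plasmid and a foreign promoter in both groups, and cells were grown in synthetic medium without uracil, for which no iron limitation is described. A value below is a scaled count, which is the number of reads on a transcript after the authors brought all samples to 1 common total. Because that scaling hides the original depth, which is unknown, the spread between cultures is the only error given.

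Budding yeast takes up iron when the transcription factor Aft1, with its paralog Aft2, binds the promoters of the iron regulon in iron-poor cells. Reductases of the Fre family reduce ferric iron at the cell surface, and the ferroxidase Fet3 and the permease Ftr1 then carry it into the cell as a complex. Iron bound to siderophores made by other microbes enters through transporters such as Sit1 and Enb1, and the mannoproteins Fit1, Fit2 and Fit3 hold it in the cell wall. The zinc finger protein Cth2, product of *TIS11* and itself an Aft1 target, promotes the decay of mRNAs for iron-using proteins. Not4 belongs to Ccr4-Not, the main mRNA deadenylase complex of yeast.

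Sites for the factors of this pathway are shown first, because the members differ in them. The 500 bases before each start codon in the R64 reference were searched on both strands for TGCACCC, the usual core of an Aft1 site. A match was present for 8 of the 10 members and for 14 of 20 other listed targets of Aft1 and Aft2. Of 6006 upstream regions of that length, 2.33% had a match. *FIT2* had 4 matches, *FTR1*, *FIT1*, *FIT3*, *ENB1* and *TIS11* had 2 each, *FET3* and *SIT1* had 1 each, and *FRE1* and *AFT1* had 0. For the shorter core CACCC, which lies within TGCACCC, *FRE1* had 1 match and *AFT1* had 0, against 33.5% of all regions with at least 1. The motif TTTGCTC, an element of the copper-sensing factor Mac1 that also acts on *FRE1*, was searched after the expression values had been seen. It occurred 3 times before *FRE1*, once each before *FTR1* and *ENB1*, and in 8.61% of all regions. The sites of *FET3* and *FIT2* and those of *FRE1* are given below in the strand that reads the motif, with the motif in capitals, as the genes with no clear difference and with the 2 largest differences between the groups.
FET3 at chrXIII:388560-388588 (forward strand): atcttcaaaagTGCACCCatttgcaggtg
FIT2 at chrXV:1059189-1059217 (reverse strand): gcttgataaatTGCACCCtgctcttgagg
FIT2 at chrXV:1059254-1059282 (forward strand): atttaaaacaaTGCACCCtaagttcaaat
FIT2 at chrXV:1059271-1059299 (forward strand): ctaagttcaaaTGCACCCcccctcgcccc
FIT2 at chrXV:1059389-1059417 (reverse strand): gctaattatacTGCACCCagttagattcg
FRE1 at chrXII:568270-568298 (forward strand): tcgccgatattTTTGCTCacctttttttt
FRE1 at chrXII:568287-568315 (forward strand): cacctttttttTTTGCTCatcgaaaattg
FRE1 at chrXII:568460-568488 (forward strand): ttttgaagtcgTTTGCTCtcttccatgct

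*FIT1* on chromosome IV and *FIT3* on chromosome XV shared the longest identical run among all pairs of members' upstream regions, 25 bases around an Aft1 core. The next longest run shared by any pair was 13 bases, without the motif. The shared run and the site of each gene are shown because this run holds the motif.
FIT1 and FIT3, shared run: cattttttTGCACCCtttcctagaa
FIT1 at chrIV:1505065-1505093 (forward strand): attcattttttTGCACCCtttcctagaac
FIT3 at chrXV:1061222-1061250 (forward strand): ccccattttttTGCACCCtttcctagaat
A match of letters is a description of these windows and does not show that a factor was bound. The coding sequences of the members were also compared with the whole genome, and 0 of their stretches of 50 bases occurred in another place, so that reads of that length can be told apart. Within *FIT1* itself 11.9% of such stretches were repeated.

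Totals of the 6 samples lay between 14881818 and 14881884 scaled counts. *NOT4* (*MOT2* in the table) had 33371, 40410 and 40314 scaled counts in Not4RRM cells and 12357, 13057 and 8966 in Not4WT cells. The plasmid marker *URA3* had 9251, 4506 and 3990 in Not4RRM cells and 1047, 1270 and 1056 in Not4WT cells, so plasmid transcripts were higher in every Not4RRM culture. The deleted *LEU2* and *MET17* genes were at 26 or less in every sample, and *STE2* of MATa cells was at 5222 or more, against at most 120 for *STE3* and 14 for *MF(ALPHA)1* of the other mating type. Not4RRM replicate 1 stood apart from replicates 2 and 3. Its correlation with them across genes (Pearson r of log2 values) was 0.958 and 0.954, against 0.993 between replicates 2 and 3. In it log2 levels relative to the Not4WT mean also declined most with coding length (Spearman rho -0.536 across genes, against -0.211 to 0.273 in the other 5 samples). The mating pheromone gene *MFA1* was at 12269 in it, against 611 and 660 in the other 2 Not4RRM cultures. In Not4WT cells *MFA1* had 8479, 5482 and 2660, so replicate 1 was above that range and replicates 2 and 3 were far below it. The members' values with single cultures left out are therefore given below, as are the calls of other iron genes that changed without Not4RRM replicate 1.

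In the comparison of Not4RRM with Not4WT cells, *FRE1* and *FIT2* had the largest differences among the 10 genes and both were higher in Not4RRM. Means of the deposited values were closer for *FET3*, *FTR1*, *FIT3*, *ENB1* and *AFT1*. Their ratios, Not4RRM over Not4WT, were 1.007, 1.018, 1.032, 1.075 and 0.915 in that order. All 10 genes had at least 71 scaled counts in every sample and passed the filter on low values. Log2 fold changes are Not4RRM over Not4WT on log2 of the TMM-scaled value plus 1 (TMM, a trimmed mean of log ratios that corrects for composition), fitted with limma across 5805 genes. A gene was called at a Benjamini-Hochberg adjusted p under 0.05 together with a 1.5-fold difference. By this rule limma called 0 of the 10 members and 0% of all genes tested. At an unadjusted p under 0.05, 2 members were higher and 0 lower, against 9.84% of all genes higher and 6.06% lower. On TMM-scaled values all Not4RRM cultures were above all Not4WT cultures for *FRE1*, *FIT2* and *SIT1*, which is 3 of 10 members against 12.4% of all genes, and below them for 0 members, against 12.2% of all genes. The steps of the study's methods, an unequal-variance test and a 1.5-fold cutoff on the deposited values, called 0 members, against 2.20% of all genes as higher and 3.81% as lower. The median log2 fold change was 0.16 over the members and 0.05 over all genes tested. With equal totals as the only scaling, these medians were 0.04 and -0.08, a shift of -0.12 in all genes.

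**Figure D1:**
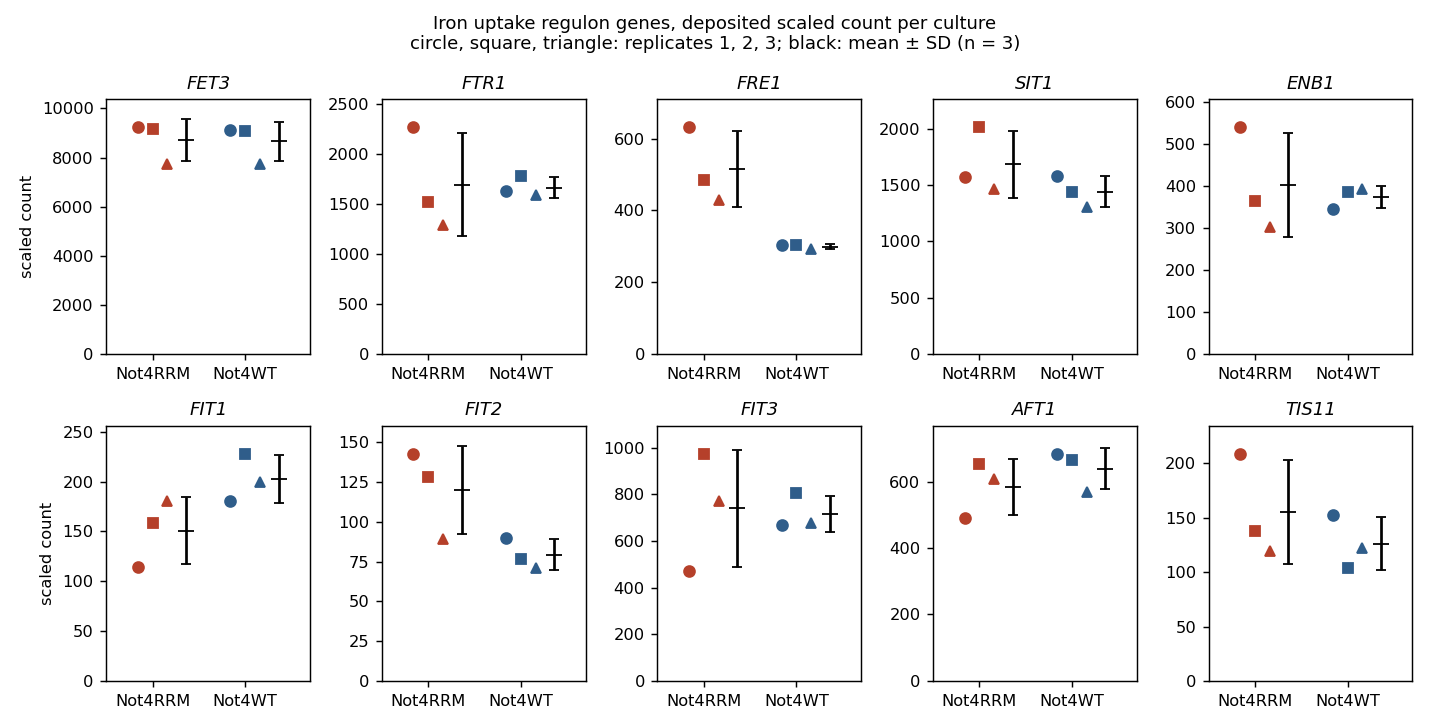
Scaled count (y axis, from 0) of each of the 10 iron uptake regulon genes in the 3 Not4RRM and 3 Not4WT cultures, with symbols for replicates 1 to 3 and black bars for the mean ± SD. The Not4RRM cultures lie above all Not4WT cultures for *FRE1* only (428 to 633 against 292 to 303), and in the other panels the deposited values of the groups overlap.

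*FRE1*, on chromosome XII from 568567 to 570627 on the forward strand of R64 (1 coding exon), encodes a ferric and cupric reductase of the plasma membrane. It had 633, 485 and 428 scaled counts in Not4RRM cells and 303, 303 and 292 in Not4WT cells. The groups did not overlap, and the lowest Not4RRM culture was well above the 3 closely spaced Not4WT cultures. The means were 515 ± 106 in Not4RRM and 299 ± 6.35 in Not4WT (SD, n = 3 each), 1.72-fold apart. On the log2 scale the fitted difference was 0.89 (standard error 0.18, 95% interval 0.48 to 1.30, adjusted p = 0.112 from limma), so that *FRE1* was not called. A two-sided exact permutation test gave p = 0.1, which is the lowest value that this number of samples can reach. Without Not4RRM replicate 1 its log2 fold change was 0.74 and *FRE1* was the member called (adjusted p = 0.0290 from limma), in a fit that called 3.91% of all genes as higher and 2.24% as lower. Over the 17 alternative limma fits its adjusted p lay between 0.0248 and 0.455 and its log2 fold change between 0.73 and 0.99. *FRE1* is 2061 bases long and removing the trend with coding length left its log2 fold change at 0.96.

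*FET3*, on chromosome XIII from 388822 to 390732 on the forward strand, encodes the multicopper ferroxidase that oxidises ferrous iron for transport. It had 9253, 9174 and 7739 scaled counts in Not4RRM cells and 9137, 9092 and 7747 in Not4WT cells. The groups covered nearly the same range, with means of 8722 ± 852 in Not4RRM and 8659 ± 790 in Not4WT (SD, n = 3 each). Its fitted log2 fold change was 0.13 with a 95% interval of -0.29 to 0.56, so a difference of up to that size in either direction could not be told from none. *FTR1*, on chromosome V from 460526 to 461740 on the reverse strand, encodes the iron permease that works with Fet3. It had 2275, 1526 and 1288 scaled counts in Not4RRM cells and 1628, 1783 and 1590 in Not4WT cells. Not4RRM replicate 1 was the highest sample and the other 2 Not4RRM cultures were the lowest. For *FTR1* the log2 fold change was 0.11 (95% interval -0.41 to 0.62), and it was -0.11 without Not4RRM replicate 1.

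The siderophore transporters are encoded by *SIT1*, for ferrioxamine B, on chromosome V from 27657 to 29543 on the forward strand, and *ENB1*, for enterobactin, on chromosome XV from 19491 to 21311 on the reverse strand. *SIT1* had 1568, 2018 and 1464 scaled counts in Not4RRM cells and 1584, 1436 and 1308 in Not4WT cells. The deposited values overlapped, and after TMM scaling all Not4RRM cultures were above all Not4WT cultures. For *SIT1* the log2 fold change was 0.34 (standard error 0.18, 95% interval -0.08 to 0.76, adjusted p = 0.389 from limma), with a range of 0.21 to 0.41 when single samples were left out. *ENB1* had 542, 365 and 302 scaled counts in Not4RRM cells and 345, 386 and 394 in Not4WT cells. Not4RRM replicate 1 was again the highest sample, and the other 2 Not4RRM cultures were within or below the Not4WT range. For *ENB1* the log2 fold change was 0.19 (95% interval -0.33 to 0.70), against -0.04 without that culture.

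The 3 cell wall mannoprotein genes did not share a direction. *FIT2*, on chromosome XV from 1059531 to 1059992 on the forward strand, had 143, 128 and 89 scaled counts in Not4RRM cells and 90, 77 and 71 in Not4WT cells. The lowest Not4RRM culture was 1 scaled count under the highest Not4WT culture in the deposited values, and above it after TMM scaling. The means were 120 ± 27.9 in Not4RRM and 79.3 ± 9.71 in Not4WT (SD, n = 3 each), 1.51-fold apart. On the log2 scale the fitted difference was 0.69 (standard error 0.22, 95% interval 0.17 to 1.21, adjusted p = 0.229 from limma, range over alternative limma fits 0.162 to 0.558). *FIT2* is the shortest member at 462 bases, and with the trend with coding length removed from each sample its log2 fold change was 0.37 (unadjusted p = 0.175 from limma). Over the 17 alternative limma fits it lay between 0.24, with both the length trend and Not4RRM replicate 1 removed, and 0.87.

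*FIT1*, on chromosome IV from 1503314 to 1504900 on the reverse strand, had 114, 158 and 180 scaled counts in Not4RRM cells and 180, 228 and 200 in Not4WT cells. No Not4RRM culture was above the lowest Not4WT culture in the deposited values, and 1 of them was level with it. The means were 151 ± 33.6 in Not4RRM and 203 ± 24.1 in Not4WT (SD, n = 3 each). The log2 fold change was -0.32 (95% interval -0.83 to 0.19, adjusted p = 0.480 from limma), the lowest among the members, and -0.12 without Not4RRM replicate 1. *FIT3*, on chromosome XV from 1060441 to 1061055 on the reverse strand, had 472, 974 and 771 scaled counts in Not4RRM cells and 668, 804 and 676 in Not4WT cells. Its Not4RRM cultures held the lowest and the highest of the 6 values. For *FIT3* the log2 fold change was 0.11 (95% interval -0.51 to 0.74), but 0.42 without Not4RRM replicate 1 and -0.15 with the length trend removed.

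*FIT2* and *FIT3* are neighbours on chromosome XV, 448 bases apart, between the siderophore iron reductase gene *FRE3* and its relative *FRE5*. *FRE5* lies 508 bases from *FIT3* and is transcribed away from it, so that both start codons face the same upstream DNA. *FRE5* had 480, 1466 and 1352 scaled counts in Not4RRM cells and 1921, 1954 and 1625 in Not4WT cells. Every Not4RRM culture was below every Not4WT culture, and Not4RRM replicate 1 was far below the other 2. For *FRE5* the log2 fold change was -0.77 (95% interval -1.72 to 0.18), against -0.24 without that culture. *FRE3* had 248, 244 and 214 scaled counts in Not4RRM cells and 291, 329 and 258 in Not4WT cells, a log2 fold change of -0.19 (95% interval -0.54 to 0.17). Genes of this cluster thus had log2 fold changes of either sign, from -0.77 for *FRE5* to 0.69 for *FIT2*.

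Of the 2 regulators among the members, *AFT1* lies on chromosome VII from 372012 to 374084 on the forward strand, and encodes the iron-sensing activator itself. It had 491, 654 and 609 scaled counts in Not4RRM cells and 684, 664 and 569 in Not4WT cells. The groups overlapped, with Not4RRM replicate 1 the lowest sample. The log2 fold change was -0.01 (95% interval -0.41 to 0.40), and 0.12 without Not4RRM replicate 1. *TIS11*, on chromosome XII from 415801 to 416658 on the reverse strand, encodes Cth2. It had 209, 138 and 119 scaled counts in Not4RRM cells and 153, 104 and 122 in Not4WT cells. The groups overlapped, and Not4RRM replicate 1 was the highest sample. The means were 155 ± 47.4 in Not4RRM and 126 ± 24.8 in Not4WT (SD, n = 3 each), and the log2 fold change was 0.40 (95% interval -0.20 to 1.00), against 0.17 without Not4RRM replicate 1.

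The SD of the deposited values was larger among Not4RRM than among Not4WT cultures for all 10 members, from 852 against 790 for *FET3* to 106 against 6.35 for *FRE1*. The share of all genes with a larger SD in Not4RRM was not counted, so this is not given as a trait of the members. After TMM scaling, Not4RRM replicate 1 was the highest of the 6 samples for 6 members (*FET3*, *FTR1*, *FIT2*, *ENB1*, *FRE1* and *TIS11*) and the lowest for 3 (*FIT1*, *FIT3* and *AFT1*). Over all genes tested, this culture was the highest sample for 30.8% and the lowest for 25.3%. Relative to the Not4WT mean, its log2 differences ran from -0.71 for *FIT1* and -0.49 for *FIT3* to 0.95 for *FIT2* and 1.18 for *FRE1*. In Not4RRM replicates 2 and 3 the log2 difference was 0.80 and 0.68 for *FRE1*, and 0.79 and 0.34 for *FIT2*. The heat map of these differences shows *FRE1*, *FIT2* and *SIT1* as the members with a positive value of at least 0.19 in all Not4RRM cultures. *TIS11* (0.842, 0.245 and 0.1) and *FET3* (0.203, 0.189 and 0.011) were also positive in all of them, with lower minima. The part of length composition or of other features of Not4RRM replicate 1 in these values was not tested beyond the length correction given above.

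**Figure D2:**
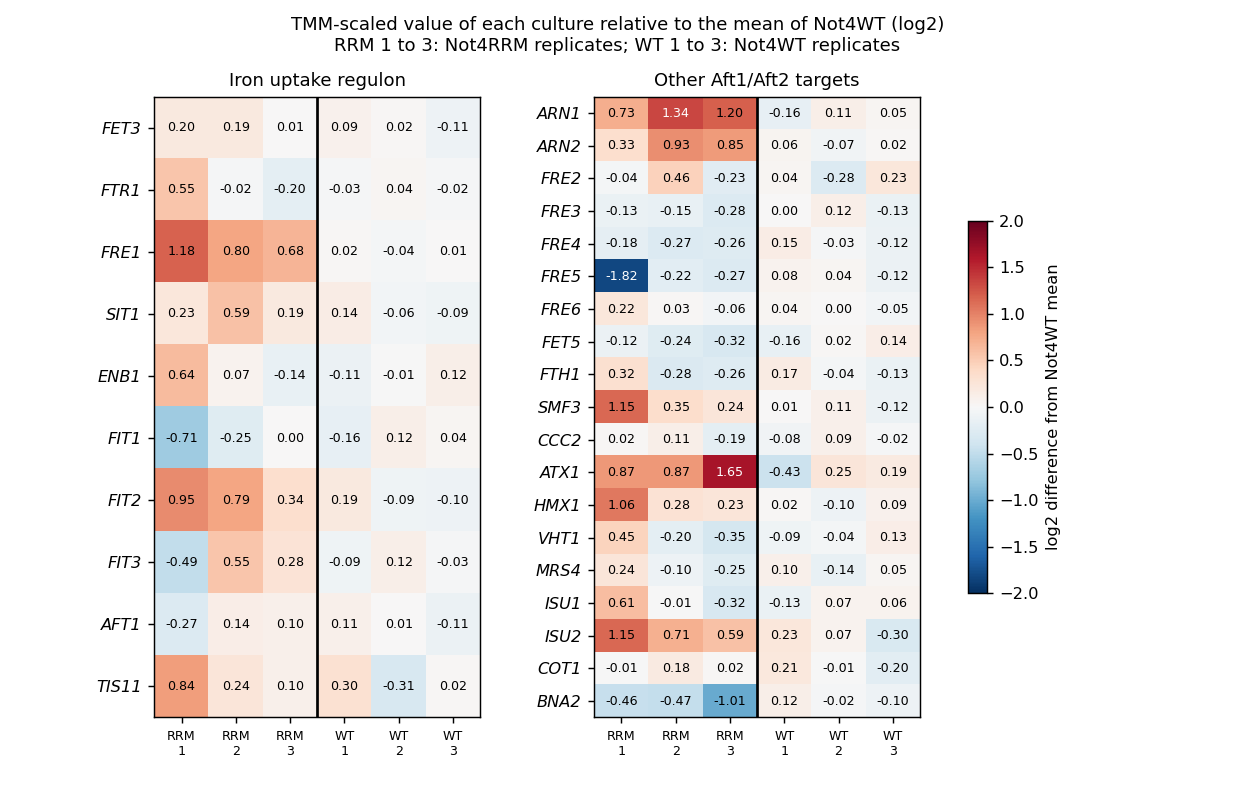
Log2 difference of each culture's TMM-scaled value from the Not4WT mean (colour and number), for the 10 members at left and the 19 tested genes of the list of other Aft1/Aft2 targets at right, with the 3 Not4RRM cultures left of the 3 Not4WT cultures. *FRE1* is at 1.18, 0.80 and 0.68 in the Not4RRM cultures, while *FIT1*, *FIT3* and, at -1.82, *FRE5* are lowest in Not4RRM replicate 1.

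With each culture left out in turn, *FRE1* stayed between 0.74 and 0.99, *FIT2* between 0.56 and 0.87, *SIT1* between 0.21 and 0.41 and *FET3* between 0.05 and 0.20 on the log2 scale. *TIS11* ranged from 0.17 to 0.54 and *FIT1* from -0.48 to -0.12, without a change of sign. *FTR1* (-0.11 to 0.27), *ENB1* (-0.04 to 0.35), *FIT3* (-0.11 to 0.42) and *AFT1* (-0.10 to 0.12) took both signs, so no direction is given for these 4 genes.

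**Figure D3:**
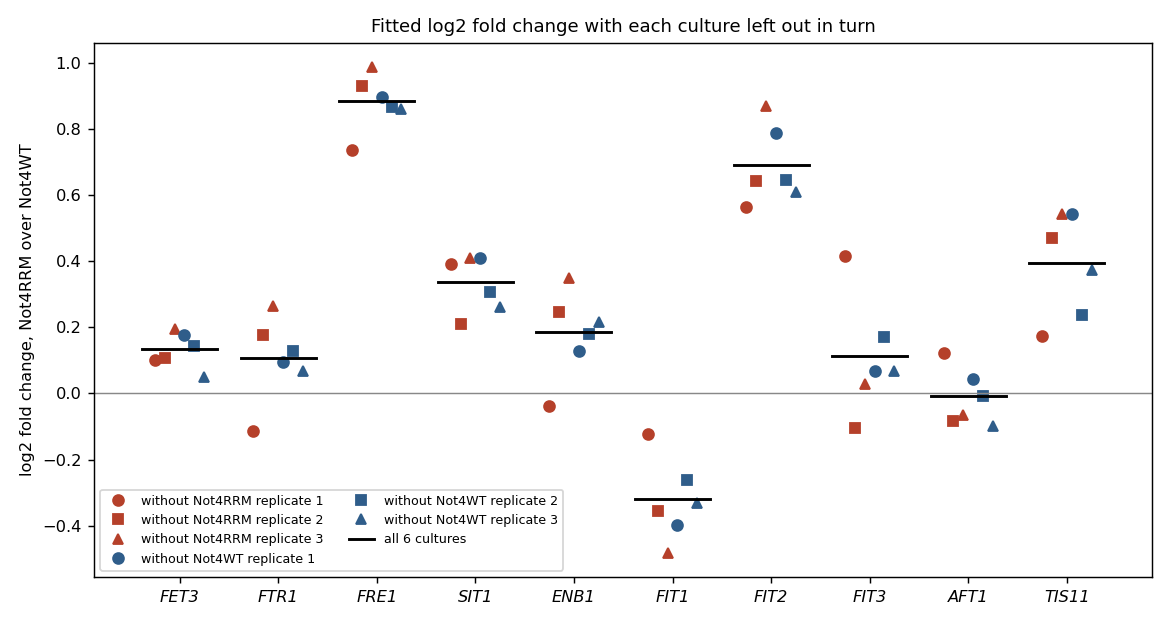
Fitted log2 fold change of Not4RRM over Not4WT (y axis) for each member with all 6 cultures (black line) and without each culture (red, a Not4RRM culture left out; blue, a Not4WT culture left out). *FRE1* stays between 0.74 and 0.99 in all fits, and *FTR1*, *ENB1*, *FIT3* and *AFT1* cross 0.

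Levels of different genes were compared as scaled count per kb of coding length. *FET3* was the highest member at 4564 ± 446 per kb in Not4RRM and 4531 ± 413 in Not4WT (SD, n = 3 each), against a median over 5907 genes of 356 in Not4RRM and 366 in Not4WT. *FTR1* followed at 1396 ± 424 in Not4RRM and 1372 ± 84.2 in Not4WT, and *FIT3* at 1202 ± 411 in Not4RRM and 1164 ± 124 in Not4WT. *SIT1* came next at 892 ± 156 in Not4RRM and 765 ± 73.2 in Not4WT. Values of *FTR1*, *FIT3* and *SIT1* overlapped from one gene to the next in Not4RRM, whereas in Not4WT they did not, with *FTR1* (lowest 1309) just above *FIT3* (highest 1307). The other 6 members were under the median gene in both groups, and *FIT1* was the lowest at 94.9 ± 21.2 per kb in Not4RRM and 128 ± 15.2 in Not4WT. In Not4WT cells *FRE1* and *TIS11* lay together near the bottom, at 145 ± 3.08 and 147 ± 28.9 per kb. In Not4RRM cells *FRE1* was at 250 ± 51.3 per kb, and its values overlapped those of *AFT1*, *FIT2*, *ENB1* and *TIS11*. The members thus ran from the abundant ferroxidase mRNA to the mRNAs of *FRE1*, *ENB1*, *FIT1* and *FIT2* below the typical gene. The siderophore transporter gene *SIT1* and the wall protein gene *FIT3* were above it.

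The rest of the pathway was described with lists of other iron genes, 52 in all, of which 51 passed the filter on low values. The copper chaperone gene *ATX1* passed it only through its Not4RRM values of 13, 13 and 22, against 5, 9 and 8 in Not4WT, and is left out of the counts that follow. In limma 0 of the other 50 were called. At an unadjusted p under 0.05, 3 of the 50 were higher (9.84% of all genes) and 9 were lower (6.06%). The steps of the study's methods called 1 as higher (2.20% of all genes) and 6 as lower (3.81%). Groups did not overlap for 7 as higher (12.4% of all genes) and 13 as lower (12.2%). The list of other Aft1/Aft2 targets held 20 genes, of which 18 were counted, with 9 above and 9 below 0. At an unadjusted p under 0.05, 3 of these 18 were higher and 1 was lower. Their median log2 fold change was 0.02, and it was -0.10 without Not4RRM replicate 1, against 0.02 over all genes tested in that fit. The siderophore transporter genes *ARN1* and *ARN2* had log2 fold changes of 1.09 (95% interval 0.60 to 1.57) and 0.70 (0.25 to 1.16), and neither was called. Without Not4RRM replicate 1 both were called by limma, *ARN1* at 1.27 (adjusted p = 0.0156, range over alternative limma fits 0.0116 to 0.459) and *ARN2* at 0.89 (adjusted p = 0.0213, range 0.0163 to 0.509). That fit called 3.91% of all genes as higher and 2.24% as lower. *ARN1* had 2363, 3610 and 3131 scaled counts in Not4RRM cells and 1368, 1722 and 1530 in Not4WT cells, with no overlap. Both genes lie on chromosome VIII, whose 275 tested genes had a median of 0.65 on the log2 scale. After this median was subtracted *ARN1* was at 0.44 and *ARN2* at 0.06, and none of the 10 members lies on that chromosome.

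*ISU2*, for a scaffold of iron-sulfur cluster assembly, had 1088, 808 and 707 scaled counts in Not4RRM cells and 616, 576 and 414 in Not4WT cells. The groups did not overlap, the log2 fold change was 0.82 (95% interval 0.31 to 1.32), and it was 0.50 with the length trend removed. Its paralog *ISU1* had a log2 fold change of 0.09 (95% interval -0.51 to 0.70). *BNA2*, of NAD synthesis from tryptophan, had 97, 96 and 63 scaled counts in Not4RRM cells and 156, 147 and 129 in Not4WT cells, without overlap, and a log2 fold change of -0.65 (95% interval -1.14 to -0.15). *SMF3*, for vacuolar iron export, and *HMX1*, for heme oxygenase, were picked out after their values were seen, since like *FRE1* they were highest in Not4RRM replicate 1. Their log2 differences from the Not4WT mean in the 3 Not4RRM cultures were 1.15, 0.35 and 0.24 for *SMF3* and 1.06, 0.28 and 0.23 for *HMX1*. After TMM scaling this culture was also the highest sample for *ISU2*, *ISU1*, *FTH1*, *FRE6*, *VHT1* and *MRS4* among the other Aft1/Aft2 targets. The same held for 30.8% of all genes tested, so this trait is not particular to *FRE1*, *SMF3* and *HMX1*.

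**Figure D4:**
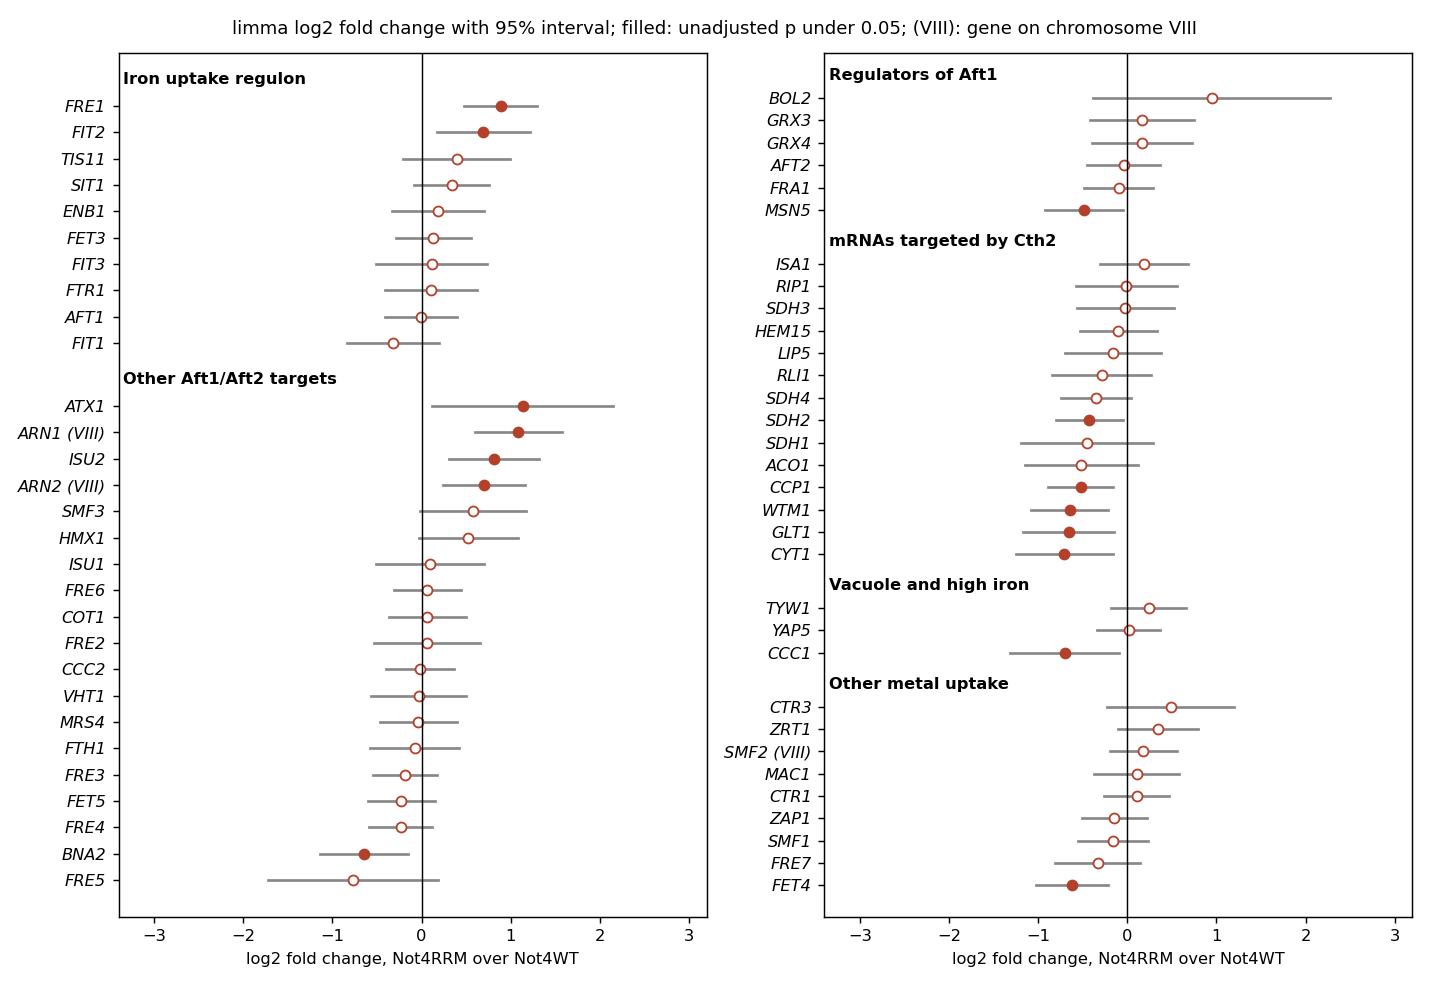
Log2 fold change of Not4RRM over Not4WT (x axis) with its 95% interval from limma for the 10 members and the 51 other tested iron genes by list, with filled points for an unadjusted p under 0.05 and genes of chromosome VIII marked. *FRE1* (0.89) and *FIT2* (0.69) are the filled points among the members, and 5 of the 14 Cth2 targets are filled, all with negative values.

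Among 6 genes that act on Aft1 (*AFT2*, *FRA1*, *BOL2*, *GRX3*, *GRX4* and *MSN5*), 0 were higher (9.84% of all genes) and 1 was lower (6.06%) at an unadjusted p under 0.05. This was *MSN5*, for the exportin that returns Aft1 to the cytoplasm, with 756, 1060 and 894 scaled counts in Not4RRM cells and 1479, 1470 and 1166 in Not4WT cells. Its groups did not overlap, which on TMM-scaled values held for 12.2% of all genes as lower in Not4RRM. Its log2 fold change was -0.48 (95% interval -0.92 to -0.05) and -0.35 with the length trend removed, at a coding length of 3675 bases. *BOL2*, a partner of the glutaredoxins that sense iron, had the highest log2 fold change of this list, 0.94, with a 95% interval of -0.39 to 2.28 and overlapping groups. With single cultures left out it ranged from 0.41, without Not4WT replicate 2, to 1.44, without Not4WT replicate 3.

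Cth2 targets were described with a list of 14 mRNAs, of which 0 were called by limma. Of these genes 13 had a negative log2 fold change, with a median of -0.39, against 0.05 over all genes tested. At an unadjusted p under 0.05, 5 of the 14 were lower (6.06% of all genes) and 0 higher, and for 7 of the 14 every Not4RRM culture was below every Not4WT culture, against the 12.2% of all genes given above. Without Not4RRM replicate 1 the median was -0.43, and with the length trend removed it was -0.41. The median of this list without a Not4WT culture was not taken. *WTM1*, which holds ribonucleotide reductase subunits in the nucleus, had 5481, 5757 and 5141 scaled counts in Not4RRM cells and 8909, 11054 and 8239 in Not4WT cells. The 3 Not4RRM cultures were close together and all below Not4WT, at -0.65 on the log2 scale (standard error 0.18, adjusted p = 0.179 from limma). *CCP1*, for mitochondrial cytochrome c peroxidase, had 1630, 1467 and 1488 scaled counts in Not4RRM cells and 2250, 2480 and 2443 in Not4WT cells. This was as clear a separation, at -0.52 on the log2 scale (standard error 0.16, adjusted p = 0.207 from limma). The other 3 of these 5 were *CYT1*, *GLT1* and *SDH2*. *CYT1* of the cytochrome bc1 complex was at -0.71, and at -0.52 without Not4WT replicate 2. *GLT1*, the iron-sulfur glutamate synthase, was at -0.66, and at -0.44 without Not4RRM replicate 1. *SDH2*, the iron-sulfur subunit of succinate dehydrogenase, was at -0.43. *ISA1*, of iron-sulfur cluster maturation, was the exception to the sign at 0.19, and *RIP1* (-0.01), *SDH3* (-0.02) and *HEM15* (-0.10) were near 0. The list was chosen with earlier results of these data known and is described by its counts only.

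**Figure D5:**
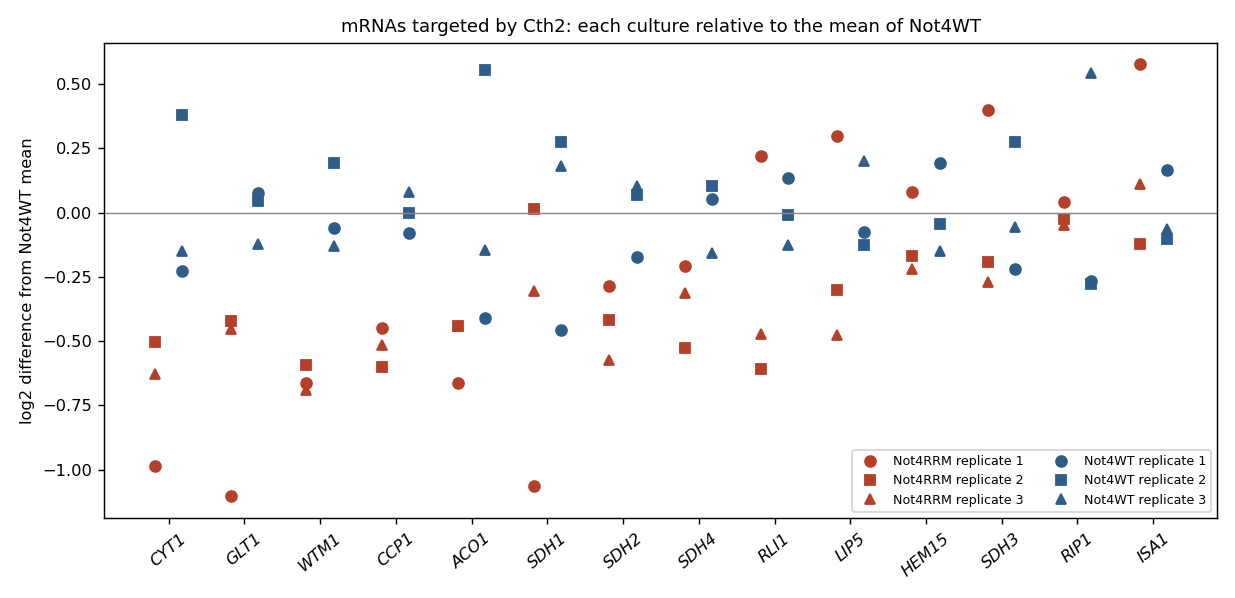
Log2 difference of each culture's TMM-scaled value from the Not4WT mean (y axis) for 14 mRNAs targeted by Cth2, ordered by fitted log2 fold change, with the Not4RRM cultures in red left of the Not4WT cultures in blue. The red points lie below all blue points for 7 genes, among them *WTM1* and *CCP1*, and mix with them at the right end of the axis.

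*CCC1*, the vacuolar iron importer that stores iron in iron-rich cells, had 161, 106 and 78 scaled counts in Not4RRM cells and 209, 215 and 167 in Not4WT cells. The deposited values did not overlap, although after TMM scaling they did. Its log2 fold change was -0.70 (95% interval -1.31 to -0.09), and without Not4RRM replicate 1 it was -0.96 and called (adjusted p = 0.0410 from limma, range over alternative limma fits 0.0319 to 0.619). The fit without that culture called 2.24% of all genes as lower and 3.91% as higher. The other 2 genes of that list, *TYW1* and *YAP5*, had log2 fold changes of 0.24 and 0.02. The low-affinity iron transporter gene *FET4* had 392, 424 and 489 scaled counts in Not4RRM cells and 807, 770 and 618 in Not4WT cells. The groups did not overlap, and the log2 fold change was -0.62 (standard error 0.18, 95% interval -1.03 to -0.21, adjusted p = 0.181 from limma). For the copper regulon, which shares *FRE1* with the iron regulon through Mac1, *CTR1* had a log2 fold change of 0.10 (95% interval -0.26 to 0.46), *FRE7* had -0.33 (-0.81 to 0.14), *CTR3* had 0.48 (-0.23 to 1.20, and 0.17 without Not4WT replicate 2) and *MAC1* itself had 0.10 (-0.37 to 0.58). All 4 had overlapping groups on TMM-scaled values, whereas the deposited values of *FRE7* did not overlap, at 123, 102 and 78 in Not4RRM cells and 133, 135 and 142 in Not4WT cells.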

How the data were processed

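RNA-seq was compared between 3 Not4RRM and 3 Not4WT cultures, grouped by sample title. The authors trimmed Ion Torrent reads, aligned them with STAR (version not given in the sources used here) to the S288C transcriptome (R64), counted reads per transcript and scaled samples to the lowest coverage. The deposited values are a score, whole numbers with totals within 66 of each other, not raw counts. The study's methods describe a Lexogen library kit and the sample labels an Ion Torrent kit.

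The table held 5913 genes and 1 row without a name, which was left out. A gene was tested if it reached 10 in at least 3 samples and 15 in total (5805 genes). TMM factors (30% of ratios and 5% of levels trimmed) were written out in code, and log2 of the scaled value plus 1 was modelled by group in limma 3.58.1 (R 4.3.3), with mean-dependent prior variance and Benjamini-Hochberg adjustment. Code was tested on simulated data. Replicate pairs differed by a mean chi-square per gene of 25.2 (Not4RRM 2 and 3) to 424 (Not4RRM 1 and 3), so no pair was counted as 1 sample. Not4RRM replicate 1 was kept, and left out as an alternative. P-values cover the spread between these cultures.

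Coding lengths, coordinates and sequences are from RefSeq R64. All members were described. Other genes were named at an unadjusted p under 0.05, as highest or lowest of a list, or as neighbours of *FIT2* and *FIT3*. *ISU1*, *SMF3*, *HMX1*, *FTH1*, *FRE6*, *VHT1*, *MRS4*, *SDH3*, *RIP1*, *HEM15*, *YAP5*, *CTR1*, *FRE7* and *MAC1* were added after their values were seen. Strain and mating type genes served as checks. Members and lists were chosen with earlier results of these data known. Alternatives were other scalings, pseudocounts, filters, prior variance, the study's steps, a replicate block, removal of the length trend (loess, span 0.5) and each sample left out. Centring of chromosome VIII, the length correction without Not4RRM replicate 1 and the study's steps on TMM-scaled values were added after the data were seen.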

Additional observations from a re-analysis of the deposited data

How the results depend on the processing

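Depth before scaling is unknown and limits what can be said of the low genes *FIT1*, *FIT2* and *TIS11*. The count of members called was 0 and became 1 (*FRE1*) without Not4RRM replicate 1, also with the length trend removed in addition, and by the study's steps on TMM-scaled values (1 each). It lay between 0 and 1 over the samples left out. The count of other iron genes called was 0, and was 7 by the study's steps (*ARN1*, *BNA2*, *MSN5*, *GLT1*, *CCP1*, *WTM1* and *FET4*), 5 by those steps on TMM-scaled values, 4 without Not4RRM replicate 1 and the length trend, and between 0 and 3 over the samples left out. Log2 fold changes that took the other sign were those near 0. With equal totals alone *FTR1* was at -0.02 and *FIT3* at -0.01 (-0.015 and -0.011 before rounding). With the length trend removed *FIT3* was at -0.147, *AFT1* at 0.063 and *ISA1* at -0.007, the same with the replicate block added. Without Not4RRM replicate 1 and the length trend, *FTR1* was at -0.113, *ENB1* at -0.038, *AFT1* at 0.116 and *ISA1* at -0.148. With only genes at 50 or more in every sample *AFT1* was at 0.001. Over the samples left out, *FTR1* ranged from -0.113 to 0.265, *FIT3* from -0.106 to 0.415, *ENB1* from -0.038 to 0.350, *AFT1* from -0.098 to 0.122 and *ISA1* from -0.005 to 0.344. The cause was not tested. In the other 118 of 130 alternative values for members, direction and call were kept. These 130 do not include the fits whose only change was a sample left out. The replicate numbers did not pair the samples (correlations of same-numbered deviations 0.07, -0.149 and 0.379, and not every sample correlated best with its own number), and a replicate block left the count of called genes at 0 of 5805, with *FRE1* at 0.89 and *FIT2* at 0.69. Across all genes the study's steps called 355 of 5913 on the deposited values and 332 on TMM-scaled values. The fit without Not4RRM replicate 1 called 357 of 5805, and 456 with the length trend removed in addition, against 0 in the main fit. The length correction alone called 6.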
